A study of Mus musculus with 36 samples.

Results

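Transforming growth factor beta (TGF-beta) signalling was followed through 10 genes chosen by name, the ligands *Tgfb1*, *Tgfb2*, *Tgfb3*, *Inhba* and *Bmp4*, the receptors *Tgfbr1* and *Tgfbr2*, the activin-binding protein *Fst*, the TGF-beta-induced matrix protein *Tgfbi* and the inhibitory SMAD *Smad7*. A gene was taken as measured where its symbol stood in the annotation of the array. This held for 9 of the 10, each with 1 oligonucleotide, out of 8129 oligonucleotides on the array and 6540 genes with a name. *Smad7* was not among the annotated probes and is not analysed here.

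The samples were quadriceps muscle of BSG mice, deficient in beta-sarcoglycan, and of GSG mice, deficient in gamma-sarcoglycan. Muscles were taken at 9 ages, from 1 and 2.5 weeks through 4, 6 and 8 weeks to 10, 12, 14 and finally 20 weeks. Each strain gave 2 mice at every age, which makes 36 animals. Each of 36 dual-channel arrays set a mouse against the mouse of the preceding age, and the ninth array of a loop set the 1-week mouse against the 20-week mouse, so that 9 arrays closed a loop and each strain had 2 loops. Every mouse carries a sarcoglycan deficiency, sex is not given in the sources used here, and litters were shared at most ages. The p-values measure the spread of array values about the fitted levels, with arrays that share a mouse taken as independent. This spread may be smaller than that between mice or between litters. Arrays of wild-type and dystrophin-deficient mice are not analysed here. All levels below are log2 differences from the 1-week mouse of the same loop, so the strains can be compared in their change with age but not in their level at 1 week.

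TGF-beta ligands are secreted in a latent form bound to the extracellular matrix. Once released, they bind the type II receptor, which recruits and phosphorylates the type I receptor, and receptor-activated SMAD proteins then carry the signal to the nucleus. In skeletal muscle the pathway is known for restraining myoblast differentiation and for driving fibroblasts to deposit collagen, whereas follistatin, the product of *Fst*, sequesters activins and myostatin and thereby favours muscle growth. In whole muscle, fewer cells of a type and less RNA per cell cannot be told apart.

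None of the 9 genes passed the test at 20 weeks against 1 week in either strain. The test was limma's moderated test with Benjamini-Hochberg adjustment over the 8129 oligonucleotides, at an adjusted p of 0.05. Of all oligonucleotides, 1.28% passed it in BSG and 3.74% in GSG. At an unadjusted p under 0.05 there was 1 gene of the 9 in BSG, *Tgfbr1*, and 0 in GSG, against 11.6% and 14.7% of all oligonucleotides. Over the 8 later ages and both strains, 0 of the 144 levels of the 9 genes passed, and 5 had an unadjusted p under 0.05. Before 20 weeks few oligonucleotides of any kind passed, at most 0.0246% in BSG and 0.357% in GSG, both at 14 weeks. Standard errors were larger in the middle of a loop, for *Tgfb1* 0.27 at 8 weeks and 0.17 at 20 weeks. The share of all oligonucleotides at an unadjusted p was not taken for the ages before 20 weeks. The mean levels ran from -0.92, for *Fst* in GSG at 8 weeks, to 1.05, for *Tgfb3* in BSG at 8 weeks. The mean over the later ages also gave 0 of 9 in each strain, where 0.0738% of all oligonucleotides passed in BSG and 0.652% in GSG. With the strains averaged, 0 of 9 passed at 20 weeks, where 5.79% of all oligonucleotides did.

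The 2 mice of a strain and age lay on the same side of the 1-week mouse in 72 of the 144 levels. Over all oligonucleotides this held for 53.3% of the levels. The intervals rest on the same spread of array values as the p-values, so they can be too narrow for 2 mice per age. Of the 18 intervals at 95% for 20 weeks against 1 week, 17 lay between -1 and 1 on the log2 scale. The exception was *Tgfb3* in BSG, whose interval ran from -0.31 to 1.16.

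**Figure D1:**
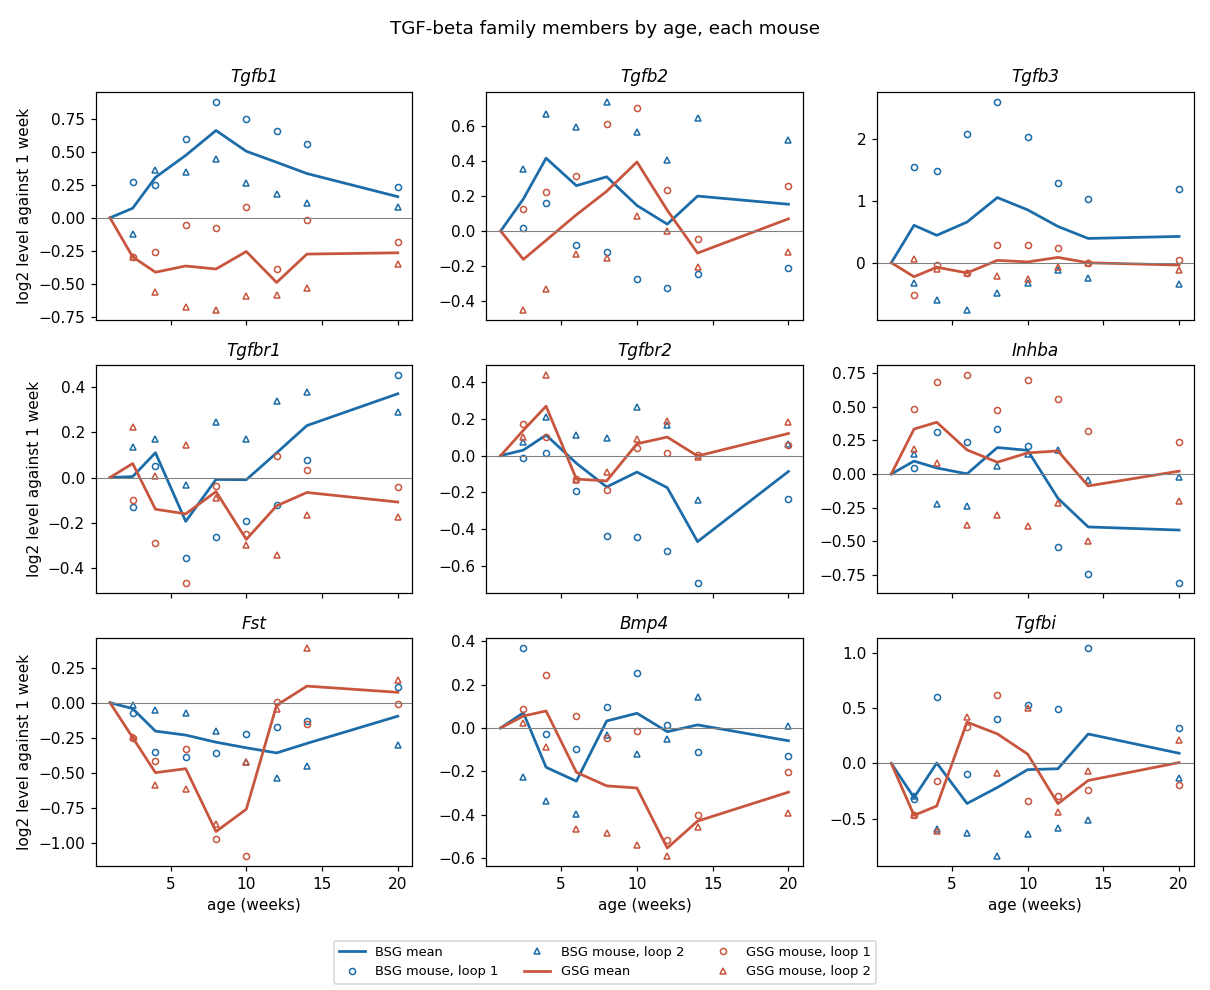
Log2 level of the 9 measured genes against the 1-week mouse of the same loop (vertical axes, which differ between panels) by age in weeks, with circles for loop 1, triangles for loop 2 and lines for the mean of the 2 mice, BSG in blue and GSG in red. *Tgfb1* lies above 0 in 15 of 16 BSG mice and below 0 in 15 of 16 GSG mice, *Fst* in GSG is lowest at 8 weeks (-0.92), and the 2 BSG mice of each age lie far apart for *Tgfb3*.

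*Tgfb1* encodes the main TGF-beta ligand of injured muscle, which macrophages and fibroblasts release. In BSG loop 1 its levels at the 8 later ages, in order from 2.5 to 20 weeks, were 0.27, 0.25, 0.60, 0.88, 0.75, 0.66, 0.56 and 0.24. In BSG loop 2 they were -0.12, 0.36, 0.35, 0.45, 0.26, 0.18, 0.11 and 0.085. Both loops were thus highest at 8 weeks, and 15 of the 16 BSG mice lay above their 1-week mouse.

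In GSG loop 1 the *Tgfb1* levels at the same ages were -0.30, -0.26, -0.054, -0.079, 0.085, -0.39, -0.020 and -0.18. In GSG loop 2 they were -0.30, -0.56, -0.68, -0.70, -0.60, -0.59, -0.53 and -0.35. Here 15 of the 16 mice lay below their 1-week mouse. At each of the 8 later ages both BSG mice lay above both GSG mice, a separation shared by 56 of all oligonucleotides, or 0.689%, with the opposite separation in 0.701%. The combination of at least 15 mice above in BSG and at least 15 below in GSG was met by 17 of all oligonucleotides, or 0.209%, and the opposite combination by 21, or 0.258%. At least 15 mice on 1 side were found for 12.9% of all oligonucleotides in BSG and 16.5% in GSG. These counts were chosen after the *Tgfb1* levels had been seen. The 8 levels of a loop share the 1-week mouse and are not independent.

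None of this passed the adjustment. The *Tgfb1* level at 8 weeks in BSG was 0.66 ± 0.27 (SE, n = 2; limma, adjusted p = 0.849). Averaged over the later ages, it was 0.37 ± 0.17 (SE) in BSG and -0.34 ± 0.17 (SE) in GSG, a difference of 0.71 ± 0.25 between the strains with a 95% interval of 0.21 to 1.22. The unadjusted p of this difference was 0.00783 and the adjusted p by limma was 1.00. The temporal Hotelling test, the study's comparison of second-order polynomials between strains, gave an unadjusted p of 0.0263 and an adjusted p of 1.00 for *Tgfb1*. Without the 9 arrays whose duplicate spots correlated below 0.3, the difference over the later ages was 0.25 ± 0.39 (SE). The GSG mean then turned to 0.10 ± 0.34 (SE), with levels of 0.52, 0.47, 0.26 and 0.30 at 4, 6, 8 and 10 weeks. Both GSG loops then lack their array of 4 over 2.5 weeks and no longer close. A preference of the oligonucleotide for 1 dye, which cancels in a closed loop, can then enter the levels. Its part in this turn was not tested.

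Macrophages are a known source of *Tgfb1* in muscle. Of 9 measured macrophage markers, 8 had estimates above 0 at 20 weeks in each strain, with medians of 1.22 in BSG and 0.97 in GSG. The test was passed by 0 of them in BSG and by 4 in GSG, all higher (*Mpeg1*, *Lgals3*, *Ctss* and *Cd68*), and by 1 in GSG without the poorly correlated arrays. Of all oligonucleotides, 0.431% passed as higher in BSG and 0.713% in GSG. From 2.5 to 20 weeks the median marker levels were -0.20, 0.63, 0.55, 0.45, 1.01, 1.11, 1.35 and 1.22 in BSG. In GSG they were -0.14, 0.097, 0.57, 0.99, 0.74, 0.27, 1.07 and 0.97. The median was thus higher in BSG at 4, 10, 12, 14 and 20 weeks and higher in GSG at 2.5, 6 and 8 weeks. The BSG loops lay apart late, at 2.02 (loop 1) and 0.47 (loop 2) at 12 weeks, 2.05 and 0.44 at 14 weeks, and 1.49 and 0.58 at 20 weeks. The GSG loops stood at 0.22 and 0.43, 1.38 and 0.76, and 0.60 and 1.33 at these ages. BSG loop 2 was thus below both GSG loops at 14 and 20 weeks and above both at 12 weeks. The part of macrophage number in the *Tgfb1* levels was not tested.

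*Tgfb2*, which encodes the isoform prominent in development, showed no side on which the mice of a strain agreed. In BSG its levels ran from -0.33 to 0.16 in loop 1 and from 0.35 to 0.74 in loop 2, so that the loops did not overlap. In GSG they ran from -0.047 to 0.71 in loop 1 and from -0.45 to 0.086 in loop 2. At 20 weeks the BSG mice stood at -0.21 and 0.52 and the GSG mice at 0.26 and -0.12, and the estimates were 0.15 and 0.070 with a standard error of 0.23.

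*Tgfb3* encodes the third isoform, which in mouse is needed for fusion of the palate. In BSG loop 1 its levels from 2.5 to 20 weeks were 1.54, 1.49, 2.07, 2.59, 2.03, 1.29, 1.03 and 1.19. In BSG loop 2 they were -0.33, -0.60, -0.76, -0.49, -0.32, -0.12, -0.24 and -0.34. Every mouse of loop 1 was above its 1-week mouse and every mouse of loop 2 below, and the loops were nowhere closer than 1.27 at an age.

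The BSG loops differed on several arrays. In loop 1 the *Tgfb3* log ratio of 2.5 weeks over 1 week was 1.60, with spots of 1.62 and 1.59, and that of 1 week over 20 weeks was -1.13. In loop 2 the same arrays read -0.091 and 0.58. The array of 10 over 8 weeks read -0.51 in loop 1 and 0.41 in loop 2, and that of 12 over 10 weeks -0.68 and 0.45. Both of these loop 1 arrays were among the poorly correlated ones, and the 2 spots of *Tgfb3* lay apart on them. They read -1.19 and 0.18 for 10 over 8 weeks and -1.27 and -0.086 for 12 over 10 weeks. Leaving out loop 2 of BSG moved the mean over the later ages from 0.63 ± 0.36 (SE, adjusted p = 0.853) to 1.65 ± 0.38 (SE, adjusted p = 0.0479), and leaving out loop 1 turned it to -0.40 ± 0.42 (SE). Either way 1 BSG mouse per age is left, which is assumed to vary like the GSG mice, whose arrays then give most of the spread. In GSG all 16 *Tgfb3* levels lay between -0.51 and 0.29.

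*Inhba* encodes the beta A subunit of activin A, a ligand that limits muscle mass. In BSG loop 1 its levels were highest at 8 weeks, at 0.34, and stood at -0.54, -0.74 and -0.81 at 12, 14 and 20 weeks. In BSG loop 2 they stood at 0.18, -0.042 and -0.024 at these ages, so only 1 of the 2 loops was low. The BSG estimate at 20 weeks was -0.42 ± 0.24 (SE, n = 2; limma, adjusted p = 0.552). In GSG loop 1 all 8 levels lay above 0, between 0.24 and 0.73, whereas loop 2 ran from -0.49 to 0.19.

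*Bmp4* encodes a bone morphogenetic protein, a ligand of the other branch of the family, which signals through SMAD1, SMAD5 and SMAD9. Its BSG levels stayed between -0.40 and 0.37 in all 16 mice. In GSG the 2 mice were close together at 12 weeks, at -0.52 and -0.59, and at 14 weeks, at -0.40 and -0.46, and 12 of the 16 GSG mice lay below 1 week. The GSG estimate at 20 weeks was -0.30 ± 0.22 (SE, n = 2; limma, adjusted p = 0.643). The mean over the later ages in GSG was -0.24 ± 0.23 (SE), and 0.72 ± 0.32 (SE) without the poorly correlated arrays. Both GSG loops then lack their array of 4 over 2.5 weeks and do not close. A preference of the oligonucleotide for 1 dye can then enter the levels, and its part in this change was not tested.

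Of the receptors, *Tgfbr1* encodes the type I kinase that phosphorylates SMAD2 and SMAD3. At 20 weeks the BSG mice stood at 0.45 and 0.29 and the GSG mice at -0.042 and -0.17. The BSG estimate was 0.37 ± 0.14 (SE, n = 2; limma, adjusted p = 0.277), the only one of the 18 estimates at 20 weeks whose 95% interval, 0.073 to 0.67, left out 0. The strains differed by 0.48 ± 0.20 (SE; limma, unadjusted p = 0.0272, adjusted p = 0.615). At 6 weeks the 2 BSG mice had stood at -0.35 and -0.034. The 2 spots of *Tgfbr1* did not vary together over the 36 arrays (r = -0.022). On the array of 1 over 20 weeks in BSG loop 2 they read -0.70 and 0.23. Across the alternatives of the closing section the BSG estimate at 20 weeks ran from 0.10 to 0.64.

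*Tgfbr2* encodes the type II receptor, which binds the ligand first. Its lowest mean was at 14 weeks in BSG, with mice at -0.69 and -0.24 (-0.47 ± 0.20, SE; limma, adjusted p = 0.803). BSG loop 1 was at or below 0.013 at every age, while loop 2 ran from -0.24 to 0.26. The GSG mice stood at 0.060 and 0.18 at 20 weeks and ran from -0.19 to 0.44 over all ages.

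*Fst* encodes follistatin. In GSG loop 1 its levels from 2.5 to 20 weeks were -0.25, -0.41, -0.33, -0.97, -1.09, 0.0069, -0.15 and -0.010. In GSG loop 2 they were -0.25, -0.58, -0.61, -0.86, -0.42, -0.044, 0.39 and 0.16. Both loops were thus below 1 week at every age up to 10 weeks, and from 12 weeks on they lay between -0.15 and 0.39.

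The GSG level of *Fst* was -0.92 ± 0.32 (SE, n = 2) at 8 weeks and -0.76 ± 0.32 (SE, n = 2) at 10 weeks, with limma adjusted p of 0.793 and 1.00. The moderated F test over the later ages gave an unadjusted p of 0.0362 and an adjusted p of 0.570, where 0.590% of all oligonucleotides passed in GSG. The steps between consecutive ages were examined after these levels had been seen. On the array of 8 over 6 weeks *Fst* read -0.54 in loop 1 and -0.53 in loop 2, and all 4 spots lay between -0.63 and -0.44. On the array of 12 over 10 weeks it read 1.21 in loop 1 and 0.098 in loop 2, so 1 loop held most of this step. The fitted step from 10 to 12 weeks was 0.74 ± 0.20 (SE; limma, unadjusted p = 0.00115, adjusted p = 0.406), and 0% of all oligonucleotides passed for it.

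In BSG, 15 of the 16 mice lay below 1 week for *Fst*, and the lowest mean was -0.36 at 12 weeks. The array of 8 over 6 weeks in GSG loop 1 was among the 9 with poorly correlated duplicate spots. Without those 9 arrays the *Fst* level at 8 weeks in GSG was -0.20 ± 0.60 (SE). Both GSG loops then lack their array of 4 over 2.5 weeks, so that later ages are reached only through the closing array. A preference of the oligonucleotide for 1 dye can then enter the levels.

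*Tgfbi*, the target gene among the members, encodes an extracellular matrix protein that fibroblasts secrete in response to TGF-beta. Its BSG levels ran from -0.32 to 1.04 in loop 1 and from -0.84 to -0.13 in loop 2. Its GSG levels ran from -0.47 to 0.62 in loop 1 and from -0.61 to 0.50 in loop 2. The 2 GSG mice were close at 2.5 weeks, both at -0.47, and at 6 weeks, at 0.33 and 0.42. With a standard error of 0.39, the estimates at 20 weeks were 0.092 in BSG and 0.0081 in GSG.

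**Figure D2:**
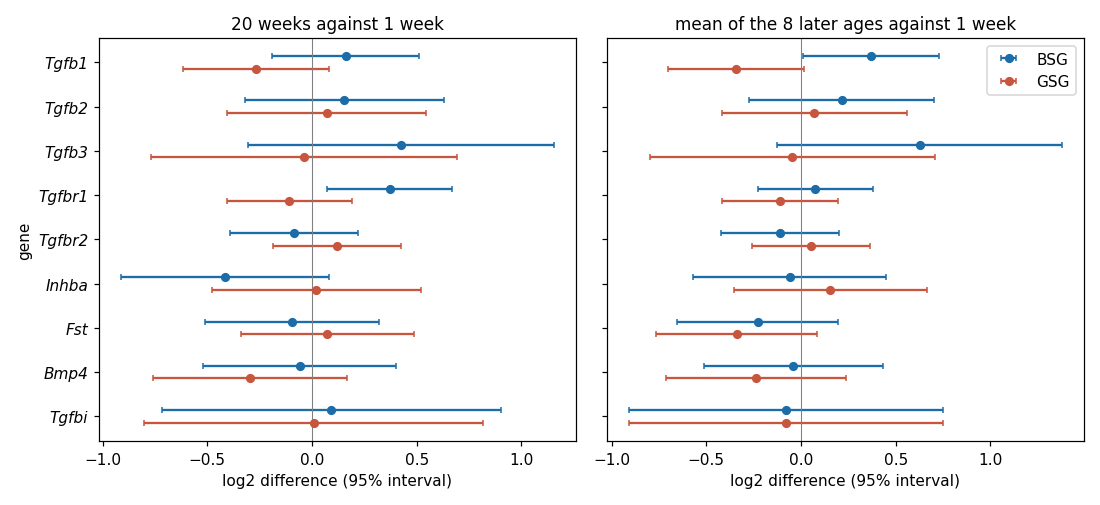
Log2 difference from 1 week (horizontal axes) of the 9 measured genes at 20 weeks (left) and averaged over the 8 later ages (right), as limma estimates with 95% intervals, BSG in blue and GSG in red. At 20 weeks the interval of *Tgfbr1* in BSG (0.073 to 0.67) lies above 0 and the other 17 hold 0, and on the right the BSG interval of *Tgfb1* lies just above 0 (0.0092 to 0.73).

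The strain difference itself was called for 0 of the 9 genes, and for 0% of all oligonucleotides, at 20 weeks, over the later ages and by both Hotelling tests. The paper lists genes, *Matn2* and *Dpp4* among them, with P under 0.05 for BSG against GSG by its pairwise temporal Hotelling test. None of the members is on that list. The temporal test as written here did not reproduce those calls, and the reason was not tested. At an unadjusted p under 0.05 the difference at 20 weeks gave 1 of the 9, *Tgfbr1*, against 7.21% of all oligonucleotides, and that over the later ages 1 of the 9, *Tgfb1*, against 3.56%. The temporal test gave 1 of the 9, *Tgfb1*, against 4.40% of all oligonucleotides. The non-temporal test gave 0 of the 9 against 1.56%.

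The genes differed in how well they were measured. The correlation of the 2 spots of an oligonucleotide over the 36 arrays was 0.93 for *Tgfbi*, 0.74 for *Tgfb3*, 0.61 for *Fst* and 0.49 for *Tgfb1*. It was 0.38 for *Inhba*, between 0.20 and 0.21 for *Tgfb2* and *Tgfbr2*, and -0.022 and -0.019 for *Tgfbr1* and *Bmp4*, where the median over all oligonucleotides was 0.32. The residual spread on an array was smallest for *Tgfbr1*, with a standard deviation of 0.22 at the 10.4th percentile of all oligonucleotides, and largest for *Tgfbi*, with 0.59 at the 94.9th percentile. Over an array, duplicate spots correlated below 0.3 on 9 of the 36, namely 4 of the first BSG loop, 4 of the first GSG loop and 1 of the second GSG loop.

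The 9 log ratios of a closed loop sum to 0 unless an oligonucleotide favours 1 dye or the array values err. For *Tgfbi* the sums of the 4 loops were 3.15, 1.97, 2.32 and 3.77, and for *Bmp4* they were -2.22, -1.21, -1.28 and -2.88. The sums had 1 sign in all 4 loops for 6 of the 9 genes, positive for *Tgfb3* and *Tgfbi* and negative for *Tgfb1*, *Tgfb2*, *Tgfbr2* and *Bmp4*. Over the whole array this held for 4061 of the 8129 oligonucleotides. A dye term in the limma fit was called for 6 of the 9 genes, the ones above with *Inhba* in place of *Tgfb1* (adjusted p = 0.0636), and for 36.1% of all oligonucleotides. In a complete loop such a term leaves every level as it is and changes only the standard error, and 0 of the 9 genes were called at 20 weeks with it. The fit without the poorly correlated arrays held incomplete loops and no such term.

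**Figure D3:**
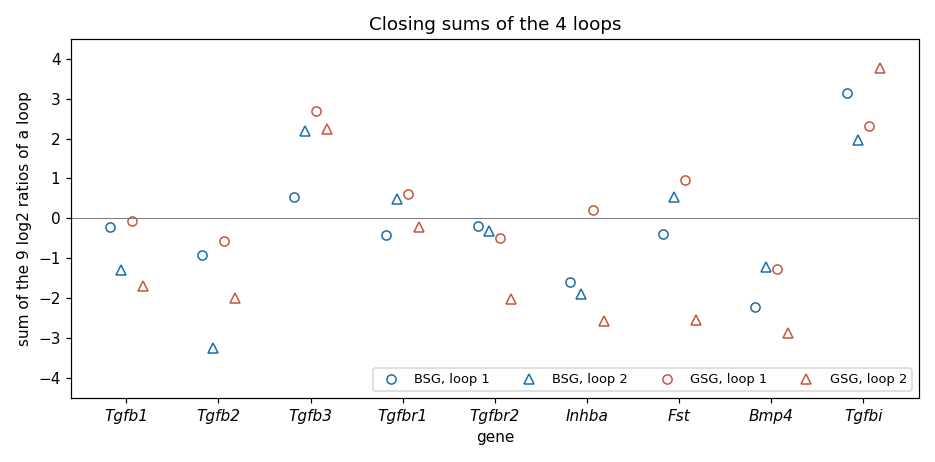
Sum of the 9 log2 ratios of a closed loop (vertical axis) for the 9 measured genes, with circles for loop 1 and triangles for loop 2, BSG in blue and GSG in red. All 4 sums are positive for *Tgfbi* (1.97 to 3.77) and negative for *Bmp4* (-2.88 to -1.21), and *Tgfbr1*, *Inhba* and *Fst* have sums on both sides of 0.

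Over the 36 pairs of the 9 genes, the correlation of the log ratios on the 36 arrays had a median of -0.010 and ran from -0.46, for *Tgfbr2* with *Tgfbi*, to 0.41, for *Tgfbr2* with *Inhba*. Arrays of a loop share mice, so the 36 points are not independent. The most similar profiles on the whole array are given as a description, since the highest correlation over so many oligonucleotides is high by selection. *Tgfb3* was most like *Ppp2r3c* (r = 0.89) and *Strap* (r = 0.87), *Tgfbi* most like *Sptlc2* (0.84) and *Myo9b* (0.82), and *Inhba* most like *Cacna1e* (0.78) and *Rnd2* (0.77). For *Tgfb1* the highest r was 0.66, with *Rala*, and for *Fst* 0.68, with *Olfr804*, which was 0.81 in GSG and 0.25 in BSG.

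The other genes of the pathway were described from lists of ligands, receptors, SMADs with their partners, extracellular regulators and targets. Together they gave 10 calls at 20 weeks against 1 week, 2 in BSG and 8 in GSG, of 9 different genes. All but 1 were lower. Over the whole array, 0.849% of the oligonucleotides passed as lower and 0.431% as higher in BSG, and 3.03% as lower and 0.713% as higher in GSG, so lower calls were the more frequent there too.

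Among 22 measured ligands outside the members, 0 passed in BSG and 1 in GSG, lower, where 3.03% of the whole array did. This was *Inha*, the alpha subunit of the inhibins, which oppose activin. Its GSG mice stood at -0.67 and -1.31 at 20 weeks and its BSG mice at -1.06 and -0.68. The estimate was -0.99 ± 0.24 (SE; limma, adjusted p = 0.0185) in GSG and -0.87 ± 0.24 (SE, adjusted p = 0.0805) in BSG. *Gdf9*, an ovarian ligand of the family, came next by p, with mice at -0.76 and -0.28 in GSG (adjusted p = 0.164). The ligands had a median of -0.040 for BSG and 0.053 for GSG, beside -0.017 and -0.010 over all oligonucleotides.

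Among 9 measured receptors, 0 passed in BSG and 1 in GSG, lower, beside the same 3.03%. This was *Acvr1b*, the type I receptor of activin and myostatin. Its GSG mice stood at -0.19 and -1.61, so 1 mouse carried the estimate of -0.90 ± 0.24 (SE; limma, adjusted p = 0.0384). Its BSG mice stood at 0.14 and -0.035, and the strains differed with an adjusted p of 0.493. *Acvrl1*, an endothelial receptor, stood at -0.57 and -0.32 in BSG (adjusted p = 0.280). The receptors had a median of -0.18 for BSG and -0.097 for GSG.

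Among 11 measured SMADs and partners, 0 passed in either strain. *Smad4*, the common partner of the receptor-activated SMADs, stood at -0.75 and -0.50 in GSG (adjusted p = 0.162). *Smad6*, an inhibitory SMAD like *Smad7*, stood at -0.65 and -0.10 in BSG (adjusted p = 0.346). Of the 11 estimates, 6 lay above 0 in BSG and 1 in GSG, with medians of 0.052 and -0.20.

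Among 19 measured extracellular regulators, 1 passed in each strain, lower, where 0.849% of the whole array did in BSG and 3.03% in GSG. In BSG this was *Fbn2*, the fibrillin of developing tissue, whose microfibrils hold latent TGF-beta, with mice at -0.52 and -0.87 (-0.70 ± 0.17, SE; limma, adjusted p = 0.0340). In GSG it was *Fstl1*, a secreted glycoprotein related in sequence to follistatin, with mice at -1.45 and -0.97 (-1.21 ± 0.31, SE; limma, adjusted p = 0.0278). *Fstl1* also stood at -0.90 and -0.93 in BSG, where the adjusted p was 0.188. The medians of the list were -0.024 in BSG and 0.0019 in GSG.

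The target list had 22 measured genes with 23 oligonucleotides. Of these, 1 passed in BSG, lower (*Col1a1*), and 5 in GSG, 4 lower (*Col1a1*, *Postn*, *Sparc* and *Tgfb1i1*) and 1 higher (*Timp1*). Of the whole array, 0.849% passed as lower in BSG, and 3.03% as lower and 0.713% as higher in GSG. Estimates lay below 0 for 16 of the 23 in BSG and 17 in GSG. Their medians were -0.11 and -0.37, beside -0.017 and -0.010 over all oligonucleotides. *Col1a1*, the main fibrillar collagen chain, stood at -1.73 and -1.59 in the BSG mice of 20 weeks and at -1.85 and -2.42 in the GSG mice. Its estimates were -1.66 ± 0.37 (SE; limma, adjusted p = 0.0237) and -2.13 ± 0.37 (SE; limma, adjusted p = 9.98e-04). It was the 1 pathway gene called in both strains.

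In GSG, *Postn*, the matrix protein periostin, stood at -1.82 and -2.51 at 20 weeks (adjusted p = 0.00290). In BSG its mice stood apart, at 0.19 and -1.20, and the strain difference at 20 weeks had a limma adjusted p of 0.464. The paper lists *Postn* as a potential GSG biomarker by its temporal test, which covers all ages. *Sparc*, a collagen-binding glycoprotein, stood at -1.48 and -0.91 in GSG (adjusted p = 0.0185) and at -0.97 and -1.16 in BSG (adjusted p = 0.0748). The SMAD-binding adaptor *Tgfb1i1* was carried by 1 GSG mouse, at -1.67 beside -0.26 (adjusted p = 0.0111). *Timp1*, an inhibitor of matrix metalloproteinases, was the gene that rose, at 1.22 and 1.44 in GSG (adjusted p = 0.0476), with 0.63 and 0.71 in BSG (adjusted p = 0.530).

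**Figure D4:**
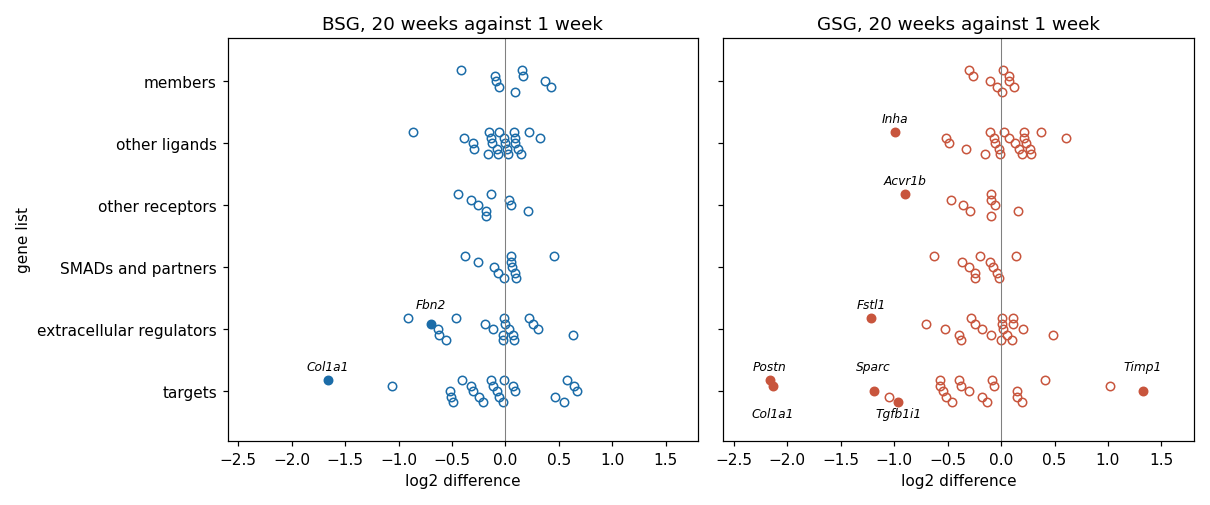
Log2 difference of 20 weeks from 1 week (horizontal axes) for the 9 measured members and for the other pathway lists (rows), 1 point per oligonucleotide, filled and named where it passed the test, BSG left and GSG right. No member is filled, and the lowest values are those of *Postn* (-2.16) and *Col1a1* (-2.13) in GSG.

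Each pathway call rested on 2 mice per age. Of the 10 calls, 6 stayed without the poorly correlated arrays. Those lost were *Acvr1b*, *Tgfb1i1* and *Timp1* in GSG and *Fbn2* in BSG. Many of the 10 were lost with any 1 loop left out. Leaving out a loop leaves 1 mouse per age in its strain and changes the spread that both strains share. A call in GSG can thus be lost without a BSG loop although its own mice are the same. Fibroblast markers, 5 of whose 10 genes are also on the target list, passed as lower at 20 weeks for 1 of 9 oligonucleotides in BSG and 3 of 9 in GSG, beside 0.849% and 3.03% of the whole array, with medians of 0.072 and -0.20. The part of fibroblast number in the collagen values was not tested. Endothelial markers had medians of -0.39 and -0.62, satellite cell and myoblast markers -0.31 and -0.071, and mature fibre markers 0.26 and 0.38. In either strain alone 0 of their oligonucleotides were called. With the strains averaged, 4 of 7 endothelial and 1 of 7 satellite cell and myoblast oligonucleotides passed as lower, beside 4.10% of the whole array. Of the mature fibre oligonucleotides 0 passed.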

How the data were processed

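The authors hybridised amplified RNA of 36 quadriceps muscles in pairs, dyed with Cy3 and Cy5, to arrays of long oligonucleotides. They removed spatial, dye and array effects with smida and deposited normalised log ratios, taken here as log2 of Cy5 over Cy3. Neither the base nor the direction is stated. With the likely direction used, *Dlk1*, a gene of newborn muscle, stood at -3.05 in BSG and at -3.54 in GSG at 20 weeks against 1 week, and 14 and 15 of 18 newborn-muscle oligonucleotides were below 0. Duplicate spots were averaged, with 0 values missing and no filter. The 2 loops of a strain were read from the sample titles. Arrays carry no read depth, and their number limits the precision.

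Each strain had 8 age parameters relative to 1 week, fitted to 36 arrays with limma (version 3.58.1, R version 4.3.3). The study's Hotelling tests were written from its equations. Benjamini-Hochberg adjustment ran over 8129 oligonucleotides at 0.05. Code was tested on simulated data. Members and lists were chosen with earlier results of these data known. Named beside the members are, per list, the genes called at 20 weeks, up to 4 by p, or the 2 of smallest p, and per member the 2 of highest correlation. *Timp1*, the fifth called target, the macrophage genes named, the steps of *Fst* between ages, the counts of sides and overlap for *Tgfb1* and the values by gene without poorly correlated arrays were chosen after the data were seen. A planned promoter motif search was not run, and no sequences are shown. The closing section covers the alternatives. Figures used Python (version 3.11.15) and matplotlib (version 3.10.9).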

Additional observations from a re-analysis of the deposited data

Results flagged for a closer look

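With 2 mice per age and strain, no group was large enough for a test of single outlying mice. The strain contrasts were flagged where a test of the difference itself had an unadjusted p under 0.05. This held for *Tgfb1* over the later ages, at 0.71 ± 0.25 (SE; BSG minus GSG; limma, unadjusted p = 0.00783, adjusted p = 1.00). It held for *Tgfb1* by the temporal Hotelling test (unadjusted p = 0.0263, adjusted p = 1.00). It also held for *Tgfbr1* at 20 weeks, at 0.48 ± 0.20 (SE; BSG minus GSG; limma, unadjusted p = 0.0272, adjusted p = 0.615). None passed the adjustment. Over all oligonucleotides, 3.56%, 4.40% and 7.21% had an unadjusted p under 0.05 in these 3 tests. Across the alternatives the *Tgfb1* difference ran from 0.25 to 0.91 and the *Tgfbr1* difference from 0.21 to 0.74, with adjusted p from 1.53e-04 to 1.00 and from 0.418 to 1.00. The lowest of these for *Tgfb1* comes from 1 value per animal, which treats the 8 levels of a loop as independent although they share a 1-week mouse.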

How the results depend on the processing

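At 20 weeks, 0 of the 9 members were called in either strain or averaged over strains under all 13 alternatives. With 1 value per animal, which takes the 8 levels of a loop as independent although they share a 1-week mouse, the mean over the later ages called 2 members in BSG (*Tgfb1*, *Fst*), 3 in GSG (*Tgfb1*, *Fst*, *Bmp4*) and 2 averaged over strains (*Fst*, *Bmp4*), the F test called 1 in GSG (*Fst*), and the strain difference over the later ages called 1 (*Tgfb1*). All oligonucleotides called by these means then numbered up to 2891. Without 1 loop, the mean over the later ages in BSG called 0 to 1 (*Tgfb3*, without BSG replicate 2), and the other results 0; the lone mouse per age left in that strain is assumed to vary like those of the other. With the replicate block (loop as a random block, consensus correlation 0.11) 0 members were called in every limma result. Mice of the same loop number in the 2 strains did not deviate together (r from -0.29 to 0.22 over the ages), so the numbers do not pair the samples.

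The sign of uncalled estimates at 20 weeks moved. Without 1 loop, BSG estimates ran from -0.21 to 0.52 for *Tgfb2*, -0.34 to 1.19 for *Tgfb3*, -0.24 to 0.065 for *Tgfbr2*, -0.30 to 0.11 for *Fst*, -0.13 to 0.011 for *Bmp4* and -0.13 to 0.32 for *Tgfbi*. In GSG they ran from -0.12 to 0.26 for *Tgfb2*, -0.12 to 0.045 for *Tgfb3*, -0.20 to 0.24 for *Inhba*, -0.010 to 0.16 for *Fst* and -0.19 to 0.21 for *Tgfbi*. With the first spots alone, *Fst* was 0.085 in BSG, *Tgfb2* -0.036 and *Inhba* -0.022 in GSG. With the second spots alone, GSG gave 0.015 for *Tgfb3*, -0.060 for *Tgfbr2* and -0.12 for *Tgfbi*. With arrays scaled to the same spread, GSG gave 0.027 for *Tgfb3* and -0.0066 for *Inhba*. Without poorly correlated arrays, *Bmp4* was 0.038 and *Tgfbi* -0.054 in BSG, and *Tgfbi* -0.33 in GSG. The cause was not tested. Calls among all oligonucleotides ran from 1 to 266 in BSG (104 in the reported fit) and 83 to 464 in GSG (304) at 20 weeks, from 114 to 679 with strains averaged (471), from 1 to 2437 (6) and 3 to 2859 (53) for the mean over the later ages, from 21 to 2891 (132) for that mean with strains averaged, from 1 to 494 (8) and 12 to 825 (48) for the F test in BSG and GSG, and from 0 to 127 (0), 0 to 1960 (0), 0 to 75 (0) and 0 to 11 (0) for the strain difference at 20 weeks, over the later ages and by the temporal and non-temporal tests. Removing a loop gave the 1 and 266 in BSG (loop 1 and loop 2) and the 83 in GSG (loop 2).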
